A study of Mus musculus with 21 samples.

Results

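Chemical reprogramming turns fibroblasts into pluripotent stem cells with small molecules, without added transcription factor genes. The comparison described here covers its last stretch: 7 libraries of chemically induced pluripotent stem cell (CiPSC) lines, 1 each for the lines C1 to C3, G1, G3, N4 and N6, were set against the 3 libraries of intermediate cells taken on day 20, day 26 and day 28. These are 10 of the 21 RNA sequencing libraries of the series, picked by their labels alone. Both groups came from mouse embryonic fibroblasts of the strain C57BL/6J-Tg(GOFGFP)11Imeg/RbrcxICR. The labels do not name the medium or compounds that the intermediates and the lines were in when harvested, nor whether libraries came from separate cultures or from single clones, so the p-values measure the spread between these libraries, and for the intermediates that spread includes differences between days. Embryo-derived lines served as an outside reference. The 2 embryonic stem cell (ESC) libraries came from E3.5 embryos, ESC-1 of the strain above and ESC-2 of C57BL/6 (B6)N. The 4 extraembryonic endoderm (XEN) libraries were wild-type ICR: 2 of CeXEN cells, derived from E3.5 embryos in stage 1 medium with VC6TFAE and 20 ng/ml bFGF, and 2 of an established eXEN line, kept in stage 1 medium with VC6TF and 20 ng/ml bFGF (eXEN-1) or in conventional XEN medium (eXEN-2).

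Pluripotent cells of the early embryo keep their state through a network of transcription factors around Pou5f1 (Oct4), Sox2 and Nanog, which activate each other and hold lineage genes down. Primitive endoderm, the tissue modelled by XEN cells, is run by Gata4, Gata6, Sox17 and Foxa2, gives rise to the yolk sac, secretes a laminin and collagen IV basement membrane, and takes up and degrades maternal proteins through endocytosis and lysosomes. In the embryo and in culture the GATA factors and Nanog oppose each other. In chemical reprogramming of fibroblasts the intermediates are described as XEN-like, and the last step of the process leads from that state to pluripotency.

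Values are FPKM, fragments per length of transcript and per library size, so they are scaled by length and may be compared between genes. Gene coordinates are those of the deposited tables (mm10). Across genes, on the log2(FPKM + 1) scale, the lines correlated with each other at 0.936 to 0.979 and with the ESC libraries at 0.931 to 0.97, the 3 days with each other at 0.959 to 0.976, and lines with days at 0.732 to 0.774. Genes are not independent replicates, so these are descriptions. Counts were not used, but the deposited confidence bounds give an estimate of depth: relative to ESC-1 the days stood at 0.969 to 1.15, and the lines ran from 0.397 in C3, the shallowest library, to 1.58 in N4.

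The test covered the 15303 genes that reached an FPKM of 1 in 2 or more of the 10 libraries. Of these, 2617 were higher and 2867 lower in the CiPSC lines, at an adjusted p under 0.05 and a log2 difference of at least 1. These are 17.1% and 18.7% of the genes tested, 35.8% together, and the median difference over all tested genes was 0.03. Differences are CiPSC minus late on the log2(FPKM + 1) scale, given ± SE from limma with Benjamini-Hochberg adjusted p-values over all tested genes. The added 1 understates the change of genes with low values. A gene below an FPKM of 1 in every library of 1 group passed the filter through the other group alone. Such a gene could be called in 1 direction only, and list counts and medians below include such genes. The shares of 17.1% and 18.7% are the background for the list counts of this comparison. Of the genes called higher, 2489 (95.1%) had no overlap between the 7 lines and the 3 days, and of those called lower 2718 (94.8%). Among all tested genes 58% had no overlap, so separation alone did not mark a called gene. The labels of both groups fitted their defining genes. Against those shares, all 8 pluripotency markers checked (Pou5f1, Nanog, Sox2, Esrrb, Zfp42, Dppa5a, Tdgf1 and Utf1) were higher in the lines, and the 7 XEN markers Gata4, Gata6, Sox17, Sox7, Foxa2, Lama1 and Col4a1 were higher in the intermediates. In bulk RNA, fewer cells of a type and less RNA per cell cannot be told apart, and this holds for every intermediate value below.

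The core factors were present at low levels in the intermediates and at high levels in every line. Pou5f1 (chr17:35506018-35510772), the POU-domain factor at the centre of the network, had an FPKM of 0.427 on day 20, 18.9 on day 26 and 6.24 on day 28, and the lines ran from 752.3 to 1127 with a median of 876.5. The intermediate values rest on about 6, 124 and 34 fragments, so day 20 was close to the floor and day 26 was not. Its log2 difference was 7.23 ± 0.57 (adjusted p = 9.27e-07), the largest rise among the genes singled out by size. Nanog, the homeodomain factor that stabilises the naive state, had 1.43, 2.79 and 1.17 on the 3 days and 209 to 374.5 in the lines, with a median of 288.3. The difference was 6.75 ± 0.21 (adjusted p = 1.01e-09), and unlike Pou5f1 the day 26 library did not stand far from the other days. Sox2, the SOX partner of Pou5f1, had 4.51, 8.65 and 10.6 on the 3 days and 178 to 241 in the lines (median 188). It rose by 4.55 ± 0.20 (adjusted p = 9.06e-09), with groups far apart.

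Zfp42 (Rex1, chr8:43295068-43307009), a zinc finger gene used as a marker of naive pluripotency, had 1.78, 4.62 and 3.56 on the 3 days. The lines held 164.5 to 261 (median 209), a difference of 5.64 ± 0.20 (adjusted p = 2.46e-09). The promoters of Zfp42 and Sox2 are shown as examples of upstream bases that hold POU letters or SOX and TCF letters. In the RefSeq promoter table (GRCm38.p6) the Zfp42 window at chr8:43307177-43307206, minus strand, holds the octamer letters ATGCAAAT of POU factors, read on the opposite strand. The Sox2 window at chr3:34649777-34649806, plus strand, holds the letters ACAAAG of SOX and TCF factors. Capitals mark the matched letters and both are written 5′ to 3′ along the gene.
Zfp42: tctgaagaggcATTTGCATaactgagcaag
Sox2: ggggggggggatACAAAGgttccccagcgg
The matches start 186 bases upstream of the Zfp42 start (distance -186) and 206 bases upstream of the Sox2 start (distance -206). Such letters describe the window and do not show binding.

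Esrrb of the naive network was already well above zero in the intermediates, as were Sall4 and Lin28a, genes that XEN-like and pluripotent cells share. Esrrb, the orphan nuclear receptor that can stand in for Nanog, had 19.7, 25.0 and 39.1 on days 20, 26 and 28 against 96.5 to 229 in the lines (median 188). It was higher in the lines by 2.59 ± 0.27 (adjusted p = 7.72e-06), and the latest day was the nearest to them. Sall4, a zinc finger factor of both pluripotent and XEN cells, had 34.6, 31.5 and 39.6 against 64.5 to 125 in the lines (median 114), a difference of 1.49 ± 0.19 (adjusted p = 3.61e-05). Lin28a, the RNA-binding protein that blocks let-7 maturation, had 46.6, 35 and 32.4 against 66.2 to 113 (median 80.1), a difference of 1.13 ± 0.18 (adjusted p = 0.000233). For these 3 genes the groups did not overlap, but the smallest gap, in Lin28a, was between 46.6 on day 20 and 66.2 in the lowest line.

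**Figure D1:**
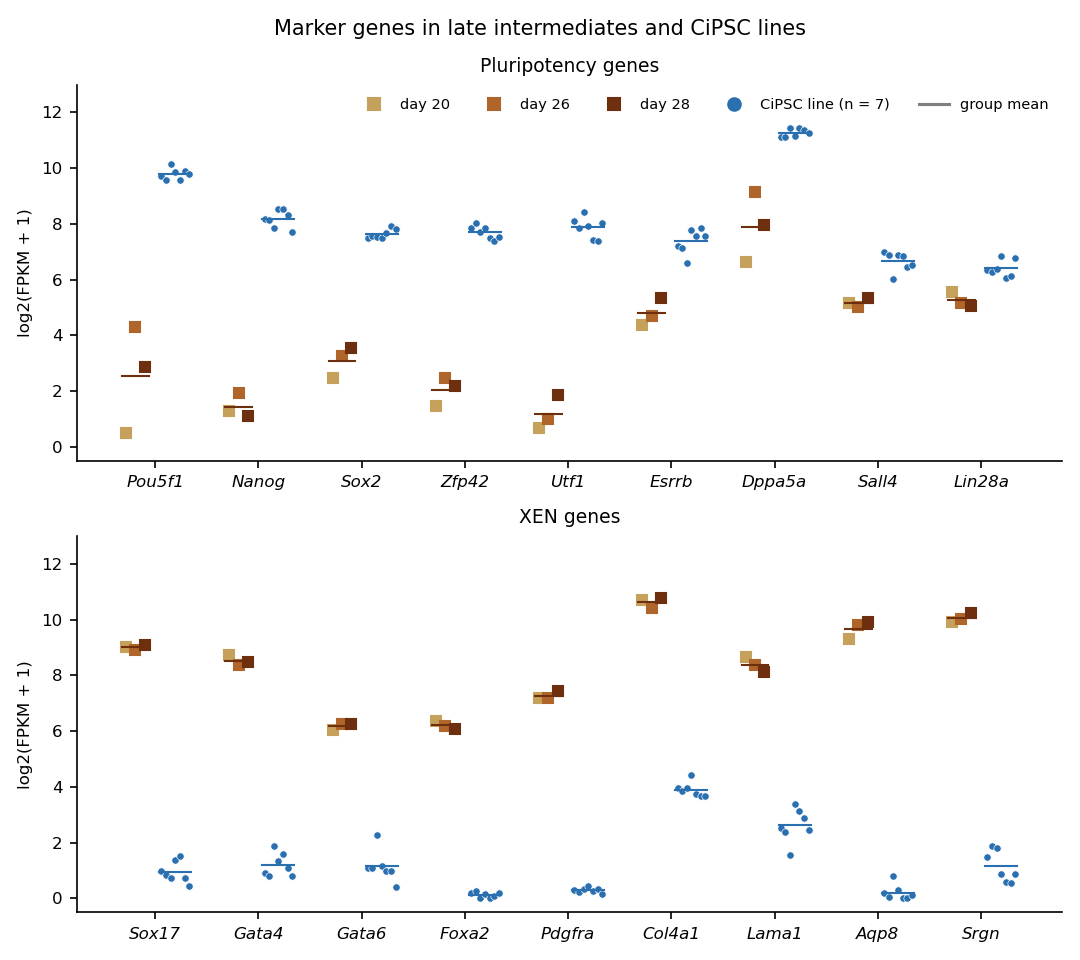
Expression of 9 pluripotency genes and 9 XEN genes as log2(FPKM + 1), with squares for day 20, day 26 and day 28, circles for the 7 CiPSC lines and horizontal lines for group means. In the upper panel the lines sit above the days for every gene, least so for Sall4 and Lin28a, and in the lower panel the order is turned over, with Foxa2 between 0 and 0.201 FPKM in the lines and between 66.4 and 81.4 on the 3 days.

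Of the 23 naive pluripotency regulators on the list, 19 were higher, 1 was lower and 3 were not called, with a median difference of 1.99 beside 0.03 for all tested genes. As a share of the CiPSC mean, the late mean of the 19 fell into 3 bands: 4 genes were under 1%, 6 between 1% and 10%, and 9 over 10%. Under 1% were Nanog at 0.605%, Pou5f1 at 0.955%, Klf2 at 0.793% and Tcl1 at 0.544%. Over 10% were Mybl2 (39.1%), Nr0b1 (35.6%), Tcf7l1 (32.8%), Tead4 (32.3%), Ncoa3 (31.4%), Rif1 (23.8%), Tfcp2l1 (23.7%), Tbx3 (20.8%) and Esrrb (16.2%). Tfcp2l1, a transcription factor downstream of LIF, rose by 1.92 ± 0.39 (adjusted p = 0.00114), though not against day 28 alone (1.36, adjusted p = 0.117). Klf2, a Krüppel-like factor tied to the naive ground state, rose by 6.10 ± 0.15 (adjusted p = 1.34e-10). The median share over the 19 was 8.46% on day 20, 7.58% on day 26 and 9.86% on day 28, and the highest of the 3 days was day 28 for 11 of the 19. The single member that fell was Klf4, another Krüppel-like factor, chosen for naming after its values were seen: it had 219.7, 257.2 and 248.9 on the 3 days and 40.2 to 130.5 in the lines, a difference of -1.65 ± 0.28 (adjusted p = 0.00029). Klf5, Sall1 and Gbx2 were not called, with differences of -0.63, 0.17 and -0.39.

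Effector genes of pluripotency rose from lower late levels: the median share of the CiPSC mean was 3.65% on day 20, 2.55% on day 26 and 1.64% on day 28. Of 26 members 23 were higher, none was lower, and Slc2a3, Spp1 and Mt1 were not called (differences 0.93, 0.02 and 0.30). The list median was 3.72, and the late mean was under 1% of the CiPSC mean for 7 of the 23, between 1% and 10% for 10, and over 10% for 6. Utf1, a chromatin-associated protein of undifferentiated cells, had 0.62, 0.988 and 2.63 on the 3 days and 168 to 344 in the lines (median 243), a difference of 6.70 ± 0.27. Fgf4, the growth factor that pluripotent cells secrete and a direct target of Pou5f1 and Sox2, was listed at 0 on days 20 and 26 and at 0.0278 on day 28, against 42.9 to 104 in the lines, a difference of 6.03 ± 0.27. Dppa2 and Lefty2, a developmental chromatin factor and a Nodal antagonist, differed by 5.90 ± 0.46 and 5.88 ± 0.46. Dppa5a, an RNA-binding protein abundant in naive cells, was the exception in level: 97.2, 558 and 249 on the 3 days against 2209 to 2801 in the lines (median 2453), a difference of 3.37 ± 0.38 (adjusted p = 1.46e-05). Its day 26 level was 22.5% of the CiPSC mean and its day 20 level 3.91%. Alpl, alkaline phosphatase, stood at 28.2% and Tdh, threonine dehydrogenase, at 22% of the CiPSC mean averaged over the days, though Tdh was at 3.45% on day 26.

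**Figure D2:**
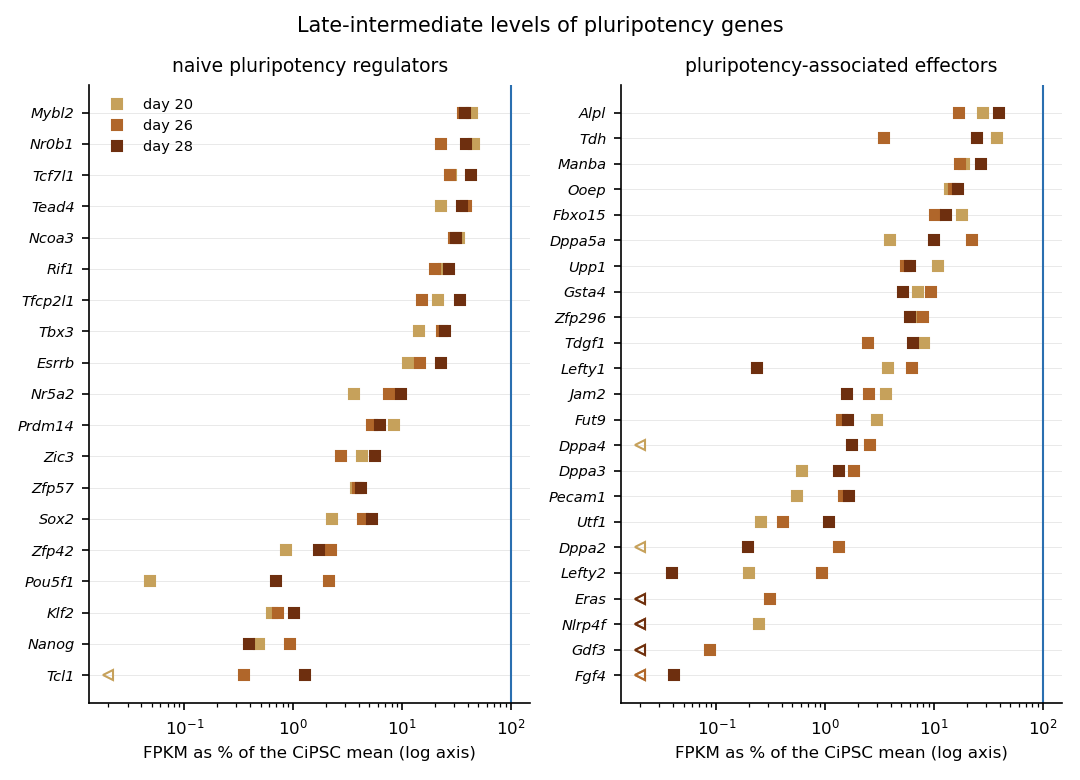
FPKM on day 20, day 26 and day 28 as a percentage of the CiPSC mean (log axis) for the 19 naive regulators and 23 effectors called higher in the lines, ordered by their late mean. The blue line marks 100%, and open triangles at the left edge stand for values at 0 or too small for the axis, which occur for Tcl1 among the regulators and for 6 effectors at the bottom and middle of the right panel, with Mybl2 highest at 39.1% of the CiPSC mean.

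A short list of genes known from both XEN-like and pluripotent cells had 9 of 12 members higher, 1 lower and 2 not called, with a median of 1.71. The list holds genes, such as Sall4 and Lin28a, that studies of chemical reprogramming single out, so its direction is not independent evidence. The other lists were also chosen with earlier results of these data known, and the same limit holds for their directions. Dppa4 (5.4 ± 0.31), Tet1 (4.46 ± 0.24), Trim71 (3.10 ± 0.37) and Igf2bp1 (2.93 ± 0.22) rose most. Tet1 oxidises methylated cytosine and Trim71 and Igf2bp1 bind RNA. Cdh1, E-cadherin, had 72.4, 43.7 and 43.8 on the 3 days and 81.3 to 130 in the lines (median 108). Its difference of 1.00 ± 0.18 (adjusted p = 0.000444) lies at the call threshold and was not called in a fit of all 21 libraries (adjusted p = 0.0661). Its late mean was 50.4% of the CiPSC mean. Epcam, the other epithelial adhesion gene of the list, was lower in the lines by 1.67 on the log2 scale (-1.67 ± 0.26), with 191.1, 164.2 and 173.5 on the 3 days against 36.2 to 84.

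Genes of formative and primed pluripotency, the states that follow the naive one, also stood higher in the lines: 10 of 14 tested members were higher and none lower, with a median of 1.97. Nodal, the TGF beta family ligand of the epiblast, rose by 5.15 ± 0.17, the ETS factors Etv5 and Etv4 by 4.80 ± 0.14 and 4.46 ± 0.35, and Zic2 by 3.90 ± 0.24. Otx2, the homeodomain factor of the formative state, varied between lines from 0.722 in N4 to 17.6 in C3. Fgf5, the usual marker of primed cells, had no more than 0.246 in any of the 10 libraries and was not tested.

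By size alone, the genes with the highest differences after Pou5f1, Nanog and Utf1 were Rbmxl2, Dnmt3l, Calcoco2, Klf2 and Fam25c. Rbmxl2, a germ cell RNA-binding protein gene, had 0.0558, 0 and 0.0611 on the 3 days and 69.9 to 122 in the lines (median 92.6), a difference of 6.5 ± 0.15 (adjusted p = 1e-10). Dnmt3l, the catalytically inactive partner of the de novo DNA methyltransferases, had 0.317, 0.185 and 0.898 and then 45 to 469, a difference of 6.47 ± 0.53, with the highest value in C3. Calcoco2, an autophagy receptor, had 0.0913, 1.19 and 0 and then 19.4 in N6 to 321 in C2, a difference of 6.43 ± 0.76. Fam25c was listed at 0 on days 20 and 28 and differed by 6.09 ± 0.36. The spread between lines was therefore small for Rbmxl2 and wide for Dnmt3l and Calcoco2.

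Most XEN regulators fell. Of 23 tested XEN regulators 20 were lower, none was higher, and the list median was -5.12. Rhox5, a homeobox gene of the X chromosome, Foxa1 and Prdm1 were not called, and Rhox5 had 530.8 to 797.7 on the days and 11.6 to 551.7 in the lines. Sox17, the SOX factor that drives primitive endoderm, had 513, 477 and 548.5 on the 3 days and 0.369 to 1.90 in the lines (median 0.773), a difference of -8.05 ± 0.22 (adjusted p = 2.74e-10). Gata4 had 427, 332 and 353 and then 0.76 to 2.66 (median 1.14), a difference of -7.32 ± 0.24 (adjusted p = 1.12e-09). Gata6 had 64.1, 74.9 and 74.7 and then 0.346 to 3.79 (median 1.11), a difference of -5.02 ± 0.30 (adjusted p = 1.02e-07), with the highest line C3. For each of these 3 genes the highest line lay far below the lowest day.

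Foxa2, the forkhead factor of endoderm, had 81.4, 72.4 and 66.4 on the 3 days, was listed at 0 in C3 and G3, reached 0.201 at most, and had a median of 0.115. Its difference was -6.08 ± 0.13 (adjusted p = 6.19e-11), and the line values rest on at most 1 fragment each. Its promoter is shown because letters of the endoderm GATA factors and of SOX factors lie close together upstream of its start (GRCm38.p6, minus strand, 5′ to 3′ along the gene). The GATA letters AGATAA are at chr2:148045630-148045659 and the SOX and TCF letters ACAAAG, read on the opposite strand, at chr2:148045618-148045647, and the windows overlap.
Foxa2, GATA letters in capitals: ctgttagccttgAGATAAtattaactttgt
Foxa2, SOX and TCF letters in capitals: agataatattaaCTTTGTgatcaaatattg
The matches start at -183 and -171 from the gene start.

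Pitx1, a homeodomain factor, fell by 8.32 ± 0.22 on the log2 scale from 544 to 606 on the 3 days to between 0.385 and 1.84. Ihh, a hedgehog ligand of visceral endoderm, had 190 to 311 and then at most 0.28, a difference of -7.69 ± 0.17, and Pdgfra, the receptor by which primitive endoderm is often sorted, differed by -6.97 ± 0.12. For 12 of the 20 called regulators the CiPSC mean was under 1% of the late mean, and the median was 0.772%. The 2 that kept over 10% were Foxa3 (22.6%) and Eomes (44.1%), named after their values were seen: Eomes had 7.07 to 9.10 on the 3 days and 1.997 to 7.09 in the lines. Not called were Foxa1 (0.49), Prdm1 (0.37) and Rhox5 (-2.21, adjusted p = 0.101), whose line values ran from 11.6 in N4 and 24.4 in N6 to 551.7 in C3.

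Structural and secretory genes of endoderm were lower in large part. Of 23 parietal endoderm and basement membrane genes 17 were lower and 1, the laminin chain gene Lama5, was higher (1.80), with a median of -4.29. Col4a1 and Col4a2, the chains of collagen IV, had over 800 FPKM on each day (1382 to 1758 for Col4a1) and fell by 6.74 ± 0.16 and 6.92 ± 0.18. Aqp8, a water channel, had 627, 889 and 963 and then at most 0.727, a difference of -9.46 ± 0.20. Pth1r, the parathyroid hormone receptor of parietal endoderm, fell by 7.53 ± 0.25 and Stra6, the retinol-binding protein receptor, by 6.82 ± 0.29. Not all basement membrane genes fell: Nid1, Nid2, Hspg2 and Agrn were not called, nor was the intermediate filament gene Vim, and Lamc1 still had 20.9% of its late mean in the lines.

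Of 18 tested visceral endoderm genes 11 were lower and 1, Apoa2, higher (2.62), with a median of -2.12. Cyp26a1, the enzyme that degrades retinoic acid, had 784, 515 and 779 on the 3 days and 0.119 to 0.955 in the lines, a difference of -8.86 ± 0.19. F2 (prothrombin) differed by -6.97 ± 0.22 and Dab2, the endocytic adaptor, by -5.60 ± 0.52. Apoe, a lipid carrier of endoderm, was not called (0.14), with 679.1, 568.3 and 1537 on the 3 days and 414 to 1807 in the lines. Among 22 genes of endocytosis, lysosome and secretion 17 were lower and none higher, with a median of -2.30. The lysosomal proteases Ctsh and Ctsl fell by 6.09 ± 0.32 and 3.82 ± 0.11, and Ctsl kept 70.7 to 90.6 FPKM in the lines from 997 to 1323 on the days. The loss in this list was partial: 12 of its 17 called genes had a CiPSC mean above 10% of the late mean, against 2 of 20 among the XEN regulators.

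The genes with the lowest differences of all were S100g, Aqp8, Myl3, Srgn, Cyp26a1, Pitx1, Sox17 and Gpx3. S100g, a vitamin D dependent calcium-binding protein, had 7563, 10890 and 9025 on the 3 days and was listed at 0 in 5 of the 7 lines, with 4.95 in C3, a difference of -12.74 ± 0.50 (adjusted p = 4.33e-09). Srgn, a secretory proteoglycan of parietal endoderm, had 963, 1029 and 1199 and then 0.468 to 2.71, and Myl3, a myosin light chain, 666 to 1060 and then 0.248 to 1.15. Gpx3, a secreted glutathione peroxidase, had 6351 and 8464 on days 20 and 26 but 82.6 on day 28, and 5.23 to 7.42 in the lines. Its difference of -7.90 ± 1.10 (adjusted p = 7.09e-05) therefore averages over days that differ among themselves by more than those of the other 7 genes.

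Most epithelial genes fell. Of 29 simple epithelial and junction genes 18 were lower and 3 (Cdh1, Spint1 and Jup) higher, with a median of -1.60. The 3 higher calls lie at the threshold: none was made without day 26 or with only the C lines, and 1 was made without N6, with median-of-ratios scaling and in the fits of all 21 libraries. The keratin genes fell: Krt23 by 5.76 ± 0.14, Krt8 by 4.47 ± 0.79, Krt19 by 4.26 ± 0.51 and Krt18 by 3.97 ± 0.81 on the log2 scale. Krt8 had 641, 468 and 343 on the 3 days, 59.0 to 63.6 in C1, C2 and G1, and 4.31 to 13.8 in the other 4 lines, so that its large error comes from the lines. With day 28 as the only late library, Krt18 kept its size (-4.0) but not its call (adjusted p = 0.0521).

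Fibroblast genes were uneven between days. Of 27 tested members 12 were lower, 1 was higher and 14 were not called, with a median of -0.77. The summed FPKM of the list was 360.2 on day 20, 553.1 on day 26 and 222.5 on day 28, and 78.6 to 350.9 in the lines, so day 28 lay within the range of the lines. Thy1, a surface marker of fibroblasts, had 33, 53.7 and 3.91 on the 3 days and 0.536 to 3.99 in the lines, so day 28 overlapped with them. With day 28 as the only late library, an alternative chosen after seeing the data, the Thy1 difference of -2.74 ± 0.63 shrank to -0.65 (adjusted p = 0.384) and the list median turned to 0.44. Timp3 (-4.39 ± 0.35), Mmp2 (-3.78 ± 0.31) and Col6a1 (-2.95 ± 0.29) had no overlap between lines and days. Col1a1, the main fibroblast collagen, was not called: it had 6.19, 14.7 and 1.04 on the 3 days, 2.68 and 3.76 in C1 and C2, and 22.5 to 44 in the other lines, a difference of 1.43 ± 0.83 (adjusted p = 0.149). Without C1 the Col1a1 difference was 1.80 (adjusted p = 0.0496), and without C1 and C2 it was 2.23 (adjusted p = 0.0058), both called higher.

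Of 12 tested genes of epithelial to mesenchymal transition 5 were lower and 1, Fn1, higher, with a median of -0.39 that turned to 0.10 against day 28 alone. Snai1, the zinc finger repressor of Cdh1 and also a parietal endoderm gene, had 127, 119 and 107 on the 3 days and 0.789 to 5.67 in the lines, a difference of -5.16 ± 0.34. Twist2 (-3.34 ± 0.60), Cdh11 (-2.66 ± 0.49) and Twist1 (-2.41 ± 0.35) were also lower, with their lowest late value on day 28. Among macrophage and blood genes Ptprc was listed at 0 in all 10 libraries, Lyz2, Csf1r and C1qa had at most 0.199, and of the 5 tested Tyrobp was lower (-2.58) and Laptm5 higher (5.27), from 0.395 to 0.67 on the days to 31.45 to 98.3 in the lines.

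Signalling lists held members called in both directions, except that of BMP. The share of all tested genes was 17.1% higher and 18.7% lower, and the smaller of the 2 counts was below that share in the Nodal, TGF beta, retinoic acid and cyclic AMP lists. In the FGF and ERK list 8 of 24 tested members were higher and 6 lower, with a median of 0.65: the ligand Fgf4 and the ERK-responsive factors Etv4 and Etv5 rose, while the receptor Fgfr4 fell by 4.89 ± 0.20. In the Nodal and activin list 7 of 19 were higher and 3 lower (median 0.30): the ligands Nodal and Gdf3 (5.35 ± 0.15) and the inhibitor Lefty2 rose, and the activin inhibitor Fst fell by 5.49 ± 0.20. In the BMP list 6 of 17 were lower and none higher (median -0.44), among them the ligand Bmp2 (-4.71 ± 0.13), the antagonist Nog (-5.54 ± 0.14) and the target factors Msx1 and Msx2 (-3.22 ± 0.20 and -2.63 ± 0.24).

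In the Wnt list 8 of 21 tested members were lower and 4 higher, with a median of -0.51. Zfp703, Wnt11 and the inhibitor Dkk1 fell by 5.88 ± 0.26, 5.65 ± 0.24 and 4.09 ± 0.33, while Cdx1 rose by 3.56 ± 0.56. In the retinoic acid list 12 of 20 were lower and 3 higher (median -1.47): the degrading enzymes Cyp26a1 and Cyp26b1 (-5.14 ± 0.20) and the uptake receptor Stra6 fell, and the receptor Rarg rose by 4.18 ± 0.38, from 0.64 to 4.97 on the 3 days to 39.5 to 103 in the lines. In the cyclic AMP list 7 of 14 were lower and 2 higher (median -0.87). Its largest member was Cited1 (-6.71 ± 0.27), and Areg, with 4.24, 21.9 and 0.154 on the 3 days, lost its call against day 28 alone (-0.05, adjusted p = 0.789).

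In the LIF and STAT3 list 5 of 16 members were higher and 5 lower (median -0.45), with 3 higher when day 26 or day 28 was left out, with only the C lines or in the fits of all 21 libraries. The ligand Lif and its receptor Lifr fell by 2.51 ± 0.26 and 1.91 ± 0.23, and the kinase gene Pim1 rose by 3.88 ± 0.20. In the TGF beta list 7 of 23 were lower and 3 higher (median -0.33, but 0.58 against day 28 alone, and 6 higher without day 20), with the receptor Tgfbr2 (-4.08 ± 0.19), the latent binding protein Ltbp1 (-3.51 ± 0.23), the ligand Tgfb2 (-2.64 ± 0.34) and the contractile gene Myl9 (-2.33 ± 0.29) lower.

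**Figure D3:**
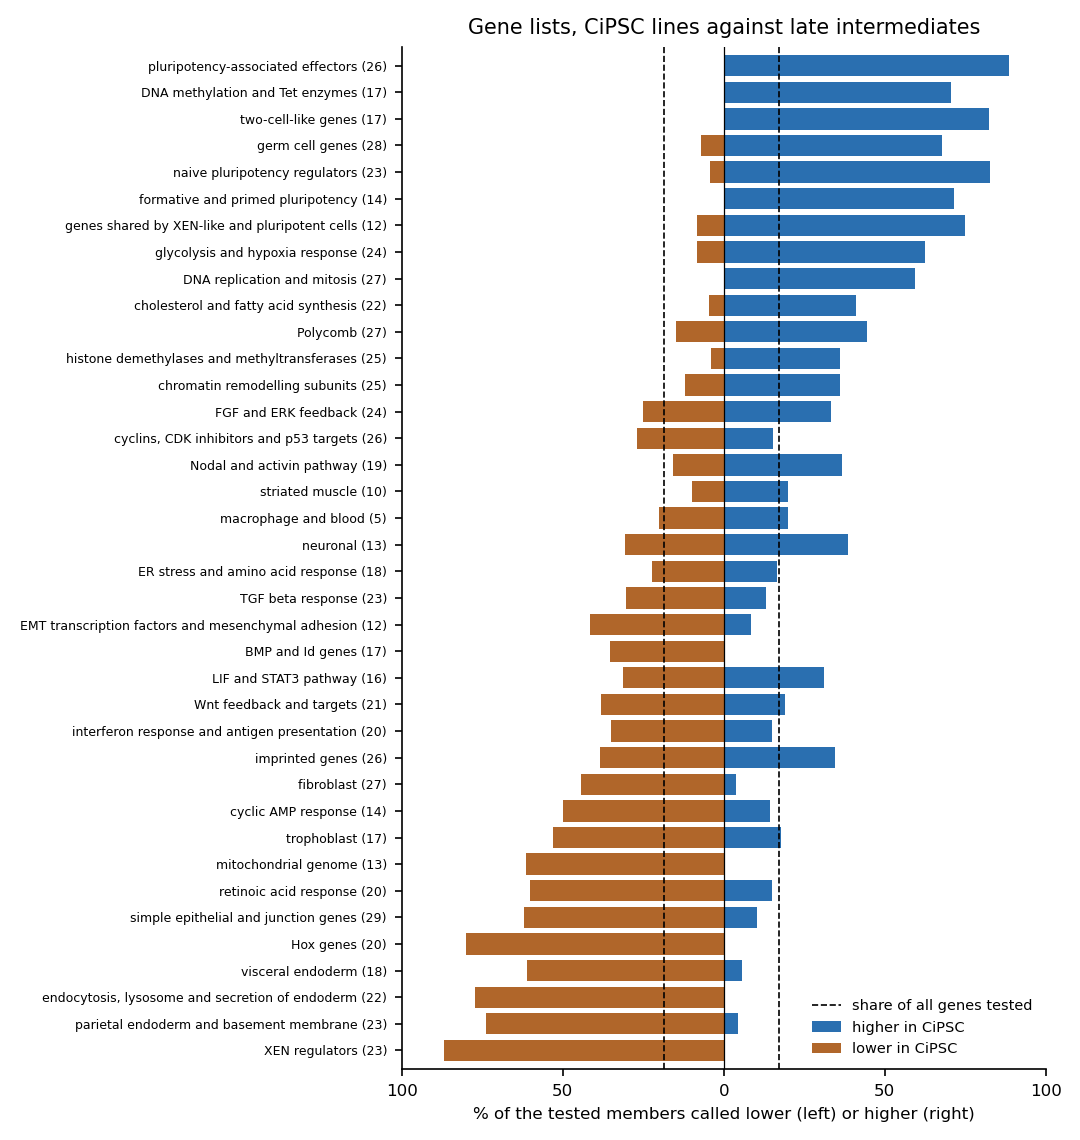
Percentage of the tested members of each of 38 gene lists called lower (left, brown) or higher (right, blue) in the CiPSC lines, ordered by list median, with the number tested in brackets. The dashed lines mark the shares over all tested genes, 18.7% lower and 17.1% higher. The pluripotency-associated effectors stand at the top (median 3.72) and the XEN regulators at the bottom (-5.12).

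Most DNA methylation genes rose, beside 17.1% higher and 18.7% lower among all tested genes. In the Polycomb, histone and remodelling lists of this paragraph the counts of lower genes were below that share. Of 17 tested members 12 were higher and none was lower, with a median of 2.20. Besides Dnmt3l and Tet1, Zfp57, which protects imprints, rose by 4.38 ± 0.21, from 5.46 to 6.05 on the 3 days to 87 to 186 in the lines, and Uhrf1, which recruits the maintenance methyltransferase, by 3.38 ± 0.14. Of 27 Polycomb genes 12 were higher and 4 lower (median 0.82). The canonical subunit genes Phc1 (2.90 ± 0.22) and Cbx7 (2.61 ± 0.15) and the accessory genes Jarid2 (2.63 ± 0.20) and Mtf2 (2.37 ± 0.28) led. Of 25 histone demethylase and methyltransferase genes 9 were higher and 1 lower (median 0.81), led by the demethylase gene Kdm5b with 3.37 ± 0.12, and of 25 remodelling subunit genes 9 were higher and 3 lower (median 0.81). In the last list Smarca2 fell by 4.14 ± 0.16, from 52 to 58 on the days to 1.41 to 2.75 in the lines, while Smarcc1, the core subunit of the esBAF complex of pluripotent cells, rose by 2.19 ± 0.14.

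Germ cell and early embryo genes rose, with large differences between lines. Of 28 germ cell genes 19 were higher and 2 lower (median 2.01), beside 17.1% and 18.7% of all tested genes. Members such as Hormad1, Dmrtb1, Tex101 and Dazl passed the filter through the lines alone and could not have been called lower. The count and median were therefore partly set by the filter. Hormad1, a meiotic chromosome axis gene, was listed at 0 on all 3 days and had 12.2 to 23.6 in the lines. Dazl, a germ cell translational regulator, had at most 0.0786 on the days and 42, 53.6, 21.7, 16.1, 21.5, 4.66 and 3.81 in lines C1 to C3, G1, G3, N4 and N6 in that order, a difference of 4.08 ± 0.69. Tuba3a (4.43 ± 0.48) and Dppa3 (4.01 ± 0.45), the latter a maternal factor that guards methylation in the zygote, also rose. The summed FPKM of the list, 624.7 to 1129 on the days, is mostly Rhox5 (531 to 798) and does not track the other members.

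Genes of the 2-cell-like state, a rare state in ESC cultures that resembles the embryo after its first cleavage and is marked by the Zscan4 cluster, were mostly higher in the lines. Of 17 tested 14 were higher and none was lower, with a median of 2.20. Over all tested genes 17.1% were higher and 18.7% lower. For all 14 the late mean was under 1% of the CiPSC mean. These 14 passed the filter through the lines alone, so none of them could have been called lower. The count rests on the choice of libraries: 9 were higher with only the G and N lines, and 1 with day 28 as the only late library. Zscan4f was listed at 0 on days 20 and 28 and at 0.056 on day 26, and had 124, 101, 70.7, 91.8 and 61.1 in C1, C2, C3, G1 and G3, but 4.88 in N4 and 6.13 in N6. The difference was 5.36 ± 0.95 (adjusted p = 0.00044), and Zscan4c (4.74 ± 0.96), Gm6763 (4.28 ± 1.09) and Zscan4d (4.14 ± 0.94) split the lines in the same way. With day 28 alone these 3 genes had differences of 4.76, 4.29 and 4.14 (adjusted p = 0.0531, 0.107 and 0.0766). The Zscan4 copies are near-identical in sequence, so the split of reads between them is uncertain. The summed level of the list was 46 to 50.1 on the days, 93.6 and 100.9 in N4 and N6, and 335.7 to 581.9 in the other 5 lines. Nearly all of the sum on the days is Eif1a, a member that was not called (0.89 ± 0.12), with 45.8 to 49.3 on the days and 75.6 and 82.2 in N4 and N6.

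**Figure D4:**
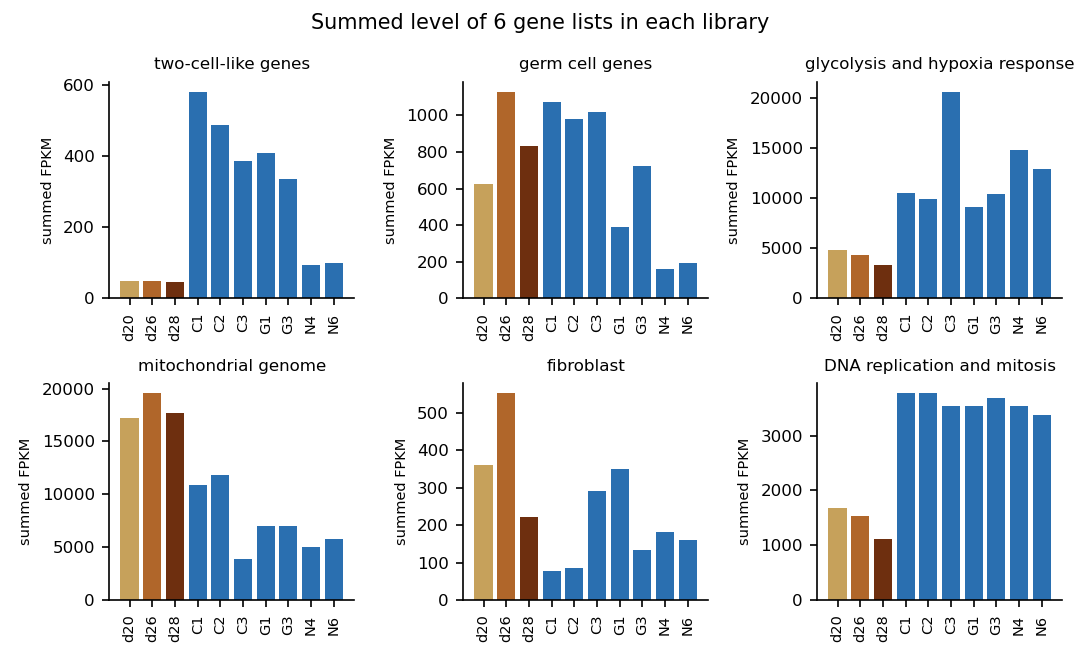
Summed FPKM of 6 gene lists in each of the 10 libraries, as bars from 0, with the 3 days in brown and the 7 lines in blue. N4 and N6 hold the lowest sums of two-cell-like genes among the lines (93.6 and 100.9), and C3 has the highest glycolysis sum (20620) and the lowest mitochondrial sum (3908).

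Of 26 tested imprinted genes 9 were higher and 10 lower (median -0.74). Igf2, the fetal growth factor, had 262, 110 and 121 on the 3 days and 1.33 to 5.85 in the lines, a difference of -5.42 ± 0.38, and the Notch-related Dlk1 (-4.36 ± 0.34), the CDK inhibitor Cdkn1c (-4.09 ± 0.32) and the receptor adaptor Grb10 (-3.91 ± 0.35) were lower as well. H19, the noncoding neighbour of Igf2 and named after its values were seen, had 308 to 510 on the days and ran over the lines from 8.96 in N4 to 264 in C2 (-2.55, adjusted p = 0.0298).

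Beside 17.1% higher and 18.7% lower among all tested genes, DNA replication and mitosis genes also differed between the groups. Of 27 DNA replication and mitosis genes 16 were higher and none lower (median 1.18), led by the helicase genes Mcm5 (2.38 ± 0.12) and Mcm2 (2.30 ± 0.10), Rrm2 and Ccne1 (2.27 ± 0.19 and 2.27 ± 0.21). Their summed level was 1119 to 1683 on the days, with day 28 lowest, and 3385 to 3775 in the lines. Of 26 cyclin, CDK inhibitor and p53 target genes 7 were lower and 4 higher (median 0.34). That list lay nearer to the shares of all tested genes, and no direction is given for it. Among its called members Cdkn1c, Ccnd2 (-3.75 ± 0.45) and Btg2 (-2.78 ± 0.19) fell. Trp53 rose by 2.71 ± 0.10, from 29 to 31.9 on the days to between 176 and 240 in the lines.

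Of 24 glycolysis and hypoxia genes 15 were higher and 2 lower (median 1.4). Eno1 (3.52 ± 0.24), Pdk1 (3.27 ± 0.33), Pfkp (3.14 ± 0.43) and the lactate exporter gene Slc16a3 (2.89 ± 0.64) led, and C3 was the highest line for each of them: Slc16a3 had 278 in C3 and 35.7 to 156 in the other lines. The summed level was 3296 to 4781 on the days, 20620 in C3 and 9114 to 14810 in the other lines. Mitochondrial transcripts went the other way: of 13 genes of the mitochondrial genome 8 were lower and none higher (median -1.24), and their sum was 17230 to 19560 on the days, 3908 in C3 and 5045 to 11800 in the other lines. C3 is also the shallowest library, and the part of depth in its values was not tested. mt-Co1 differed by -1.71 ± 0.32 and mt-Nd6 by -1.45 ± 0.42. mt-Nd6 lost its call with the C lines alone (-0.89, adjusted p = 0.111). With day 28 as the only late library 3 of the 13 were lower, and mt-Nd6 (-1.16, adjusted p = 0.225) was not among them. Of 22 cholesterol and fatty acid synthesis genes 9 were higher and 1 lower (median 0.85), led by Fasn (2.36 ± 0.24), Acaca (2.06 ± 0.15) and Fdps (2.01 ± 0.19).

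Hox, trophoblast and antigen presentation genes were more often lower than higher, beside 17.1% higher and 18.7% lower among all tested genes. The counts of higher genes in the trophoblast and interferon lists lay near that share. Of 20 tested Hox genes 16 were lower and none was higher (median -1.80): Hoxc4, Hoxa9 and Hoxa10 had 10.2 to 18 FPKM on each day and at most 1.54 in any line, with differences of -3.42 ± 0.17, -3.28 ± 0.28 and -3.14 ± 0.26. Hoxc4, Hoxc8, Hoxc9 and other members stayed below the filter level of 1 FPKM in every line. They passed the filter through the days alone and could not have been called higher. The Hox count and median were therefore partly set by the filter. Of 17 tested trophoblast genes 9 were lower and 3 higher (median -1.05): Esx1, Krt7 and Elf5 fell (-2.92 ± 0.45, -2.83 ± 0.34 and -2.50 ± 0.13), and Tfap2c, also a germ cell and naive pluripotency factor, rose by 4.82 ± 0.24. Of 20 interferon and antigen presentation genes 7 were lower and 3 higher (median -0.56, and 1 higher without day 28), and the class I components B2m and H2-D1 fell by 3.14 ± 0.17 and 2.96 ± 0.29. B2m had 142 to 151 on the days and 11.6 to 20 in the lines.

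The 13 neuronal, 10 striated muscle and 18 endoplasmic reticulum stress genes tested had 5, 2 and 3 higher and 4, 1 and 4 lower, with medians of -0.08, 0.24 and -0.15. Against day 28 alone these medians were 1.14, 0.68 and 0.41, so no direction is given for these lists. Single members stood out: Stmn2, a tubulin-binding protein of neurons, had 0.0418 to 2.38 on the days and 75.8 to 142 in the lines (5.87 ± 0.30), and Mylpf, a fast-muscle myosin light chain, 13.9 to 24 and then 306 to 588 (4.58 ± 0.23).

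None of the days was nearest to the lines for most of the called genes. Among the 2617 genes called higher, day 20 lay nearest to the CiPSC mean for 34.5%, day 26 for 35.9% and day 28 for 29.6%. Among the 2867 called lower the shares were 28.4%, 36.8% and 34.8%. The median gap for the genes called higher was 1.53, 1.48 and 1.58 on days 20, 26 and 28. With 1 library a day, differences between days have no replicate check.

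To see whether the embryo's own pair of states differs in the same genes, the ESC libraries were compared with the XEN libraries, none of which enters the comparison above. Of 13900 genes tested 2810 (20.2%) were higher and 1643 (11.8%) lower in ESC, 32% together. The median over all genes was 0.204, and 0.02 after median-of-ratios scaling, so this comparison carries a shift towards ESC in the deposited values: higher calls made up 63.1% of calls, 53.4% after that scaling and 49.7% after quantile normalization. Of 2462 genes higher in the CiPSC lines and tested in both, 1676 (68.1%) were also higher in ESC, 781 were not called there and 5 were lower. Of 2383 genes lower in the lines, 1222 (51.3%) were also lower in ESC, 1105 (46.4%) were not called and 56 (2.35%) were higher. The counts depend on the 2 ESC libraries: without ESC-1 there were 1625 higher and 707 lower, and without ESC-2 1517 and 627. Read from the other side, the CiPSC calls covered 60.3% of the 2780 genes higher in ESC and 75.3% of the 1623 lower.

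The difference between the 2 comparisons was itself tested, as CiPSC minus late less ESC minus XEN, over 15771 genes. It was called positive for 415 (2.63%) and negative for 1661 (10.5%), 13.2% together, with a median of -0.178 that became -0.003 after median-of-ratios scaling and 0.065 after quantile normalization. The split of calls follows that shift: 20% were positive as deposited, 36% after median-of-ratios scaling and 43.3% after quantile normalization. Without ESC-2 the counts were 275 and 1067. Strain and medium differ between ESC and XEN, and cannot be told apart from cell type there.

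Esrrb, Dppa5a and Cdh1 had a smaller step in reprogramming than between the embryo-derived lines. Esrrb had at most 0.398 in the XEN libraries against 19.7 to 39.1 on the 3 days, and the CiPSC step was smaller than the embryo step by 4.35 on the log2 scale (-4.35). For Dppa5a, at 0.973 to 21.3 in XEN, the difference was -5.53, and for Cdh1, at 0.135 to 6.26 in XEN and 128 and 138 in ESC, it was -5.08. Lin28a went the other way: XEN libraries had 165 to 221 and ESC 46 and 59.1, so that it was lower in ESC than in XEN but higher in CiPSC than in the intermediates, a difference of 2.96. The difference was not called for Pou5f1 (-1.48, adjusted p = 0.253), Gata4 or Sox17. Without day 20 that of Pou5f1 was -2.51 and called (adjusted p = 0.00319), and with eXEN as the only XEN lines that of Sox17 was -1.39 and called (adjusted p = 0.0165). Of the 23 naive regulators 3 had a called negative difference and 0 a positive one, and of the 26 effectors 6 and 1, beside 10.5% and 2.63% of all genes.

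Among lists, epithelial genes had 17 of 29 called negative and none positive, since their median was 0.85 for ESC minus XEN and -1.60 for CiPSC minus late. Cldn4, a tight junction gene, had 86.5 to 137 on the days, 27.1 to 58.7 in the lines, 21.7 and 29.8 in ESC and at most 1.2 in XEN (difference -5.76). The Hox list had 16 of 20 negative (medians -0.72 and -1.80), the retinoic acid list 9 of 20 (0.56 and -1.47) and the mitochondrial genome 10 of 13 (1.22 and -1.24). Glycolysis had 9 of 24 positive and 1 negative (0.22 and 1.4). The two-cell-like and remodelling lists had no called member among 17 and 25.

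**Figure D5:**
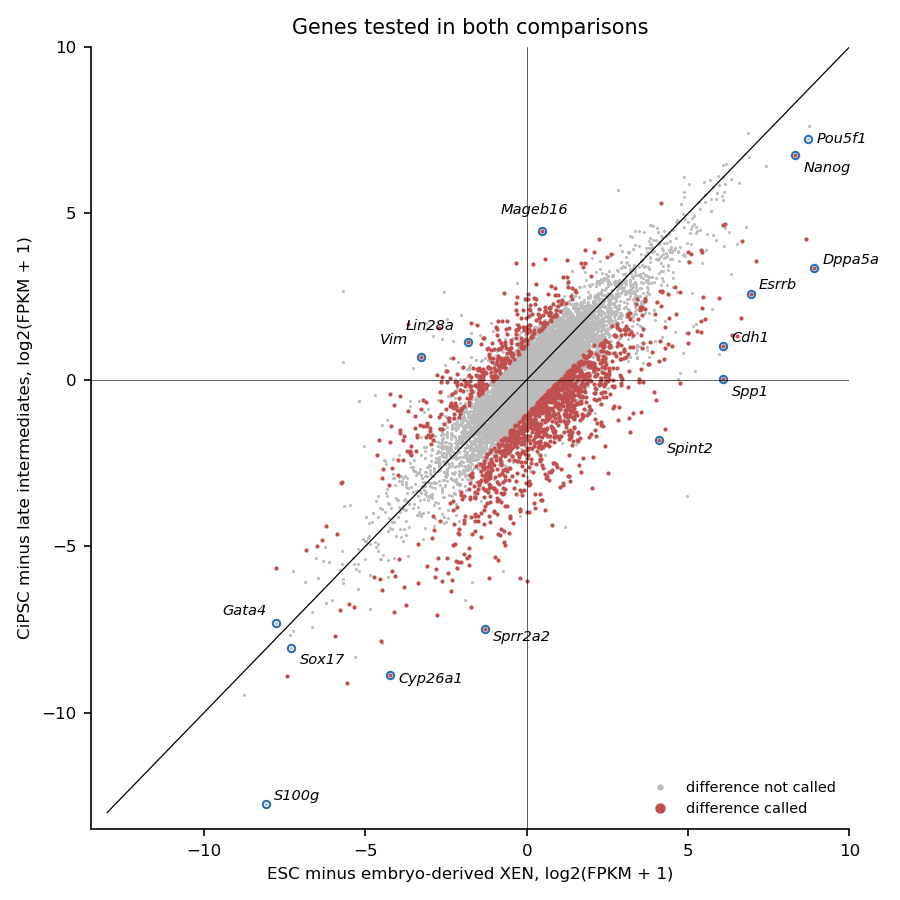
CiPSC minus late against ESC minus embryo-derived XEN, both as differences on the log2(FPKM + 1) scale, for the 13637 genes tested in both, with red points where the difference between the comparisons was called and a diagonal line of equality. Most genes lie along the diagonal, Gata4, Sox17 and Pou5f1 near it, while Esrrb, Dppa5a, Cdh1, Spp1 and Spint2 lie below it and Vim, Lin28a and Mageb16 above it.

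The promoter letters shown above were counted in the 250 upstream bases of genes in the RefSeq table, which covers 10203 of the tested genes. The POU octamer ATGCAAAT, on either strand, was in 1.49% of 2153 starts of genes called higher, 1.45% of 2621 starts of genes called lower, 1.27% of all tested and 1.6% of all promoters in the table. AGATAA was in 5.43%, 7.13%, 6.03% and 9.99%, and ACAAAG in 13.8%, 13.5%, 12.6% and 16.5%. No set stood far from the tested background by any of these counts, which are descriptions without a test. The median ratio of observed to expected CpG was 0.67 for genes called higher, 0.64 for genes called lower and 0.71 for all tested.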

How the data were processed

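RNA of 21 mouse libraries was sequenced from total RNA, per the labels. The authors deposited 1 table of FPKM values per library, made with TopHat and Cufflinks on mm10 per the submitters' processing notes; versions and gene models are not given in the sources used here. Each table lists 43496 loci, and values of the 40 gene IDs with several loci were added. Exact zeros can be failed estimates, so such genes are given as listed at 0. The quantifier's status column marks 446 low-data genes on days 20 and 26 and none on day 28 or in the lines.

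Genes reaching an FPKM of 1 in 2 or more libraries of a comparison were tested on log2(FPKM + 1) with limma 3.58.1 (R 4.3.3, intensity trend) and Benjamini-Hochberg adjustment, the call rule being an adjusted p under 0.05 with a log2 difference of 1 or more in size. The 3 days formed 1 group. ESC against XEN (mean of the CeXEN and eXEN means) and the difference between both comparisons were fitted likewise. Fragment numbers and relative depth were estimated from the deposited upper bounds, taken as Poisson. Named were 14 fixed genes, and the 8 highest and 8 lowest called differences without overlap and with a group mean of at least 5 FPKM. Also named were up to 4 called members per list with the largest differences, and the 6 largest and 6 smallest called differences between comparisons. Predicted and small RNA genes were left out of the ranked sets. Genes outside these sets, such as Alpl, Tdh, Epcam and Apoe, were in part named after their values were seen, and not all are marked so. The members and the 38 lists (836 of 849 symbols matched) were chosen with earlier results of these data known. Promoters come from RefSeq (GRCm38.p6), with an entry for 7 of the 14 fixed genes. Tested on simulated data with 200 changed genes among 15303, the fit of CiPSC against late recovered 36% of changes of log2 size 1, 88% of size 2, 100% of size 3 and 98% of size 4, with 6 false calls. Alternatives varied pseudocount, filter, scaling, fit, lines, days and single libraries. Tables and figures were made with Python 3.11.15, pandas 2.3.3, numpy 2.4.6 and matplotlib 3.10.9.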

Additional observations from a re-analysis of the deposited data

Results flagged for a closer look

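In 3 of the 27 genes checked for a single line apart from the other 6, CiPSC line C3 was that line, by Dixon's criterion for 7 values: Gata6 at 3.79 FPKM, S100g at 4.95 and Aqp8 at 0.727. These are endoderm genes at low level, C3 is the shallowest library (0.397 of the depth of ESC-1), and the criterion singles out about 1 group in 20 by chance. The Gata6 value of C3 rests on about 57 fragments, and the part of depth was not tested. Without C3 the calls of these genes were kept.

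The test of the difference between the CiPSC step and the embryo lines was called for 6 of the 14 fixed genes. It was negative for Nanog (-1.56), Esrrb (-4.35), Dppa5a (-5.53) and Cdh1 (-5.08), and positive for Sall4 (1.04) and Lin28a (2.96), all as log2 differences of differences. The Nanog call was lost under quantile normalization (-0.92, adjusted p = 0.0705), and the Sall4 value lies at the threshold (adjusted p = 0.0439) and lost its call when most single libraries were left out, with 0.76 (adjusted p = 0.227) without ESC-1.

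The most negative differences were those of Sprr2a2 (-6.17), Spp1 (-6.06), Gpx2 (-6.06), Spint2 (-5.91), Zg16 (-5.84) and Cldn4 (-5.76). Spp1, osteopontin, had 231, 1014 and 42.6 on days 20, 26 and 28, 141 to 286 in the lines, 264 and 377 in ESC and 0.609 to 20.2 in XEN. Spint2, a protease inhibitor of epithelia, had 342 to 462 on the days, 101 to 132 in the lines, 103 in both ESC libraries and 0.209 to 63.6 in XEN. Zg16 had 43.6 to 58.6 on the days and at most 0.174 in any line, ESC or XEN library.

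The most positive were Erdr1 (5.35), Mageb16 (3.99), Vim (3.96), Pcbp4 (3.42), Eno1b (3.29) and Plekha2 (3.07). Erdr1 had 334 in ESC-1 and 0.375 in ESC-2, its adjusted p was 0.0489, and without ESC-2 its difference was 1.39 and not called (adjusted p = 0.271). Leaving out any other single library except ESC-1 also ended the Erdr1 call (adjusted p from 0.0521 to 0.0877). Mageb16 had 0.0467 to 0.403 on the days, 23 to 27.6 in the lines and 14.4 to 25.6 in XEN, so the intermediates were the samples with the low level. Vim, the mesenchymal intermediate filament, had 74 to 147 on the days, 111 to 283 in the lines and 518 to 902 in XEN.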

How the results depend on the processing

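The counts for CiPSC against late (2617 higher, 2867 lower) stayed within 1.5 times under all 25 alternatives: 2067 higher and 2230 lower with a filter at 5 FPKM, 3376 and 3398 with a pseudocount of 0.1, 2341 and 2728 with day 28 alone, 2623 and 2796 without lines C1 and C2 (the last 2 chosen, like days 20 and 26 alone, after seeing the data), and 2502 to 2665 and 2821 to 2962 with 1 library left out. For 155 named genes, 3856 values kept their direction and their side of an adjusted p of 0.05. Of the others 13 moved above it, 3 moved below it (Col1a1) and 0 reversed. These counts follow the adjusted p alone. They leave out calls lost by size, such as that of Cdh1 without day 26 or with only the C lines. In the fit of all 21 libraries Cdh1 moved above 0.05 (adjusted p = 0.0661). For ESC against XEN, leaving out 1 library gave 1517 to 3100 higher and 627 to 1816 lower; for the difference between comparisons 275 to 615 and 1067 to 1926, with 739 and 969 under quantile normalization, 775 higher under median-of-ratios scaling and 716 higher with eXEN alone. The ESC minus XEN value reversed for Col1a1, Gpx2, Erdr1 and Eno1b. For Col1a1 it was -0.17 in the main fit, 0.25 with pseudocount 0.1, 0.39 with eXEN alone and -1.0 to 0.66 with 1 library left out. For Gpx2 it was negative in the main fit, 0.72 with pseudocount 0.1 and 0.90 with eXEN alone. With 1 library left out Gpx2 ran from -0.98 to 0.98, with 0.13, 0.47 and 0.98 without ESC-2, CeXEN-2 and eXEN-1. For Erdr1 it was -3.69 in the main fit and -7.65 to 0.28 with 1 library left out, 0.28 being without ESC-2. For Eno1b it was 0.18 in the main fit, -0.04 with median-of-ratios scaling and -0.51 with eXEN alone. With 1 library left out Eno1b ran from -0.73 to 1.1, with -0.01 without eXEN-2. The difference between comparisons reversed for Zfp42, from 0.76 in the main fit to -0.01 with pseudocount 0.1 and -1.06 with eXEN alone. With 1 library left out Zfp42 ran from -0.33 to 1.86. The cause was not tested. With the replicate number as a block, ESC against XEN gave 2705 higher and 1598 lower; the numbers mark different lines or media and do not pair the samples. No paired analysis was possible because the labels give the CiPSC lines and the days no shared replicate numbers. FPKM values carry no counts, so low late levels rest on few fragments (6 for Pou5f1 on day 20).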

Other observations

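A cluster of zinc finger genes on chromosome 4 (chr4:145410245-147746561, mm10, the extent of the tested genes), picked after its values were seen, stood out among the genes called higher. Of 89 genes listed in the interval 48 were tested, 38 were higher and 1 (Gm26880) lower in the lines, with a median difference of 2.0. The median of their mean FPKM was 9.18 in the lines and 0.146 in the late intermediates. Over all tested genes 17.1% were higher and 18.7% lower. Members such as Gm13223 and Gm13227, listed at 0 on all 3 days, passed the filter through the lines alone and could not have been called lower. The counts and medians of the interval are therefore not independent evidence. Gm13147 had 0.249, 0.22 and 0.0662 on days 20, 26 and 28 and 56.7 to 92.1 in the lines (6.01 ± 0.16), Gm13145 at most 0.099 and then 49.3 to 74.1 (5.89 ± 0.13), and 2610305D13Rik at most 0.349 and then 47.1 to 78 (5.78 ± 0.18). In ESC against embryo-derived XEN, 34 of 43 tested genes of the interval were higher and 0 lower, beside 20.2% and 11.8% of all genes tested there. The genes are close copies of each other, so the share of reads given to each is uncertain, and their part in the neighbouring calls was not tested. Gm13155 and Gm8178 had the same value in each of the 10 libraries, so the members are not separate counts.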
